A study of Sesamum indicum with 6 samples.

Results

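The YABBY genes of sesame (Sesamum indicum) were examined in young leaves of 17-day-old seedlings that carried either the SiCD-A or the SiCD-B allele of linkage group 8. Members were the genes whose product text in the authors' deposited table contains YABBY or CRABS CLAW. The search found 6 genes among the 20661 with product text, of 25762 genes counted, and 0 of the 6 were named CRABS CLAW. A further 5101 counted genes have no product text and could not be searched.

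YABBY proteins are seed plant transcription factors with a zinc finger and an HMG-box-like YABBY domain. In Arabidopsis thaliana the vegetative members, FILAMENTOUS FLOWER (YABBY 1), YABBY 2, YABBY 3 and YABBY 5, are transcribed on the lower (abaxial) side of leaf primordia, promote blade growth and keep meristem genes off in the leaf. They work with the corepressors LEUNIG, SEUSS and SEUSS-like, and KANADI factors act on the same leaf side. CRABS CLAW and INNER NO OUTER (YABBY 4) of that species act in the carpel and nectary and in the ovule.

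The plants were recombinant inbred lines, whose genomes are fixed mosaics of the parents. One group was homozygous for SiCD_A, with wild-type KAN1, and the other for SiCD_B, with mutant kan1, and each had 19 plants. Each group had 3 pools, and each pool mixed the RNA of 9 plants of its group. A group thus has 27 places for its 19 plants, which means that its pools overlap in plants. The p-values measure the spread between such pools only, and other loci that differ between the 2 sets of plants cannot be told apart from the allele. Pools held 56123250 to 82165322 counts, and 3 counts, the limit that a count of 0 allows, correspond to 0.0365 to 0.0535 counts per 1000000 (CPM) before scaling. This limit covers counting error only.

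KAN1 (LOC105167765, linkage group 8), the gene named by the alleles, had 1579, 1511 and 1420 counts in the SiCD_A pools and 4164, 4418 and 4310 in the SiCD_B pools. The labels do not describe the kan1 lesion, so its transcript level does not check the labels. As leaf markers, 20 genes of chlorophyll a-b binding proteins and the Rubisco small subunit were taken. Together they held 21760 to 32800 CPM in SiCD_A and 21940 to 25830 CPM in SiCD_B. Such genes do not tell leaf from other green tissue.

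Of the 6 YABBY genes, 4 were higher in SiCD_B and 0 were lower. YABBY 1-like and YABBY 1 rose 1.93-fold and 1.77-fold and YABBY 5 rose 1.18-fold. Of the 2 YABBY 2 genes, 1 rose 1.10-fold and the other did not pass. YABBY 4 had at most 24 counts in any pool. The calls of YABBY 5 and of the YABBY 2 gene were not stable: 3 YABBY genes were higher under most other scalings and tests, and 2 when any single pool but SiCD_B pool 1 was left out. In bulk tissue, more cells of a type and more RNA per cell cannot be told apart.

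The background was high. In edgeR's quasi-likelihood test over 21009 genes, 30.6% passed an adjusted p of 0.05, with 16.5% higher and 14.1% lower in SiCD_B. Among tested genes with a mean of at least 10 CPM, as 5 of the YABBY genes have, 18.7% were higher. For 4 of the 6 YABBY genes all SiCD_B pools lay above all SiCD_A pools, as they did for 25.8% of all tested genes. With a further limit of 1.5-fold, added after the data were seen, 2 YABBY genes were higher, as were 4.24% of all tested genes. The balance over all genes depended on the scaling, with 3462 higher and 2971 lower under TMM and 4515 and 2169 with library size alone.

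**Figure D1:**
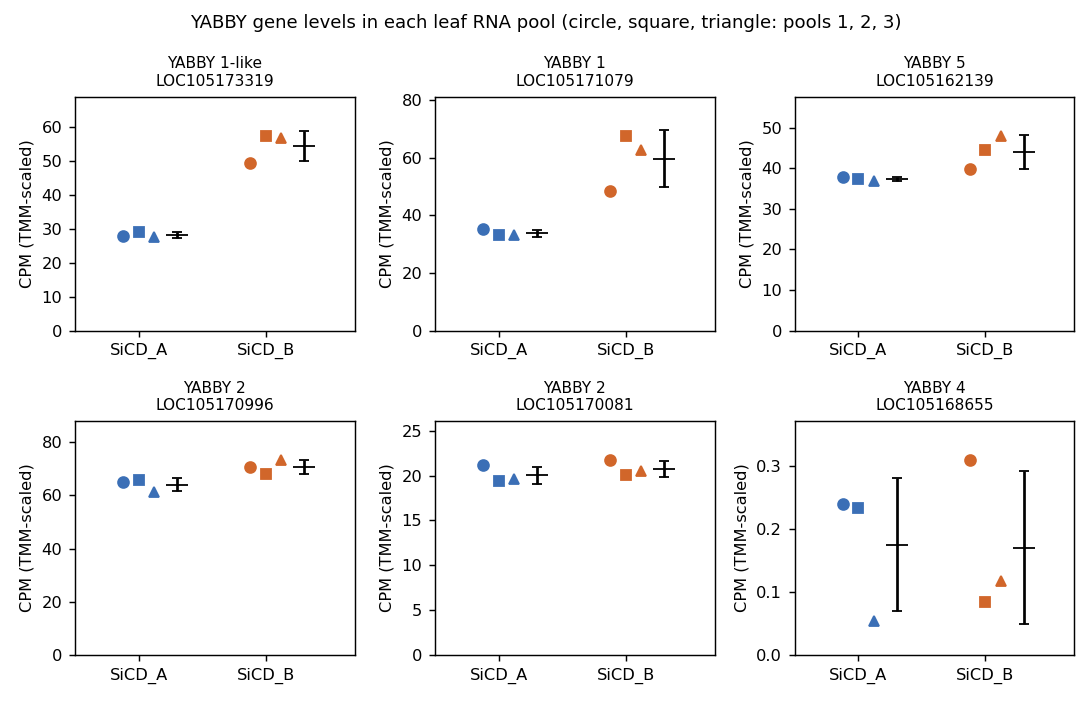
Level of each YABBY gene in each pool, in CPM scaled by TMM factors (y axes from 0, with a separate range for each gene). Colours mark the allele group, symbols the pool number, and the black bar the mean and SD of 3 pools. YABBY 1-like is 27.5 to 29.1 CPM in SiCD_A and 49.3 to 57.5 CPM in SiCD_B, while YABBY 4 is under 0.4 CPM in every pool.

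YABBY 1-like (LOC105173319) lies on linkage group 11, with the coding segment given in the deposited table at 4092111 to 4092185 on the minus strand. These positions are given on RefSeq sequences with a version number, and no genome build is named with them. It had 1984, 2124 and 1551 counts in the SiCD_A pools and 3821, 4804 and 4326 in the SiCD_B pools, which is 27.9, 29.1 and 27.5 CPM against 49.3, 57.5 and 56.7 CPM. All SiCD_B pools were above all SiCD_A pools, and the means were 28.2 ± 0.81 and 54.5 ± 4.50 CPM (SD, n = 3 pools each).

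The log2 fold change of YABBY 1-like was 0.95 (SE 0.06), a 1.93-fold rise with a 95% interval of 1.75 to 2.14 and an adjusted p of 6.64e-05 in edgeR's test. It ranked 39 by p among the 21009 genes and 413 by log2 fold change. In the authors' deposited table its log2 fold change was 0.94 (adjusted p = 1.17e-31), and it was the YABBY gene among the 100 genes of their shorter list.

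YABBY 1 (LOC105171079), the other gene named for FILAMENTOUS FLOWER, lies on linkage group 1 (coding segment 16879699 to 16879800, minus strand). It had 35.2, 33.0 and 33.1 CPM in SiCD_A and 48.5, 67.7 and 62.8 CPM in SiCD_B. The groups did not overlap, but SiCD_B pool 1 was well below the other SiCD_B pools. The log2 fold change was 0.82 (SE 0.12), or 1.77-fold with a 95% interval of 1.46 to 2.14 (adjusted p = 0.00298 in edgeR's test).

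YABBY 1-like and YABBY 1 were also compared with each other within each pool. The ratio of YABBY 1-like to YABBY 1 counts was 0.794, 0.881 and 0.831 in the SiCD_A pools and 1.02, 0.849 and 0.902 in the SiCD_B pools, and the groups overlapped. The mean log2 ratio was 0.14 higher in SiCD_B (two-sided exact permutation p = 0.2). How the authors' counting treated reads that close copies share is not given in the sources used here, so the split between such genes is uncertain.

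YABBY 5 (LOC105162139), a vegetative member in Arabidopsis thaliana, lies on linkage group 5 (coding segment 6347464 to 6347523, plus strand). It had 37.9, 37.3 and 36.9 CPM in SiCD_A and 39.7, 44.5 and 48.0 CPM in SiCD_B. All SiCD_B pools were above SiCD_A, though pool 1 only by a small margin. The log2 fold change was 0.24 (SE 0.07), or 1.18-fold with a 95% interval of 1.06 to 1.31 (adjusted p = 0.0257 in edgeR's test). The call was lost when any pool except SiCD_B pool 1 was left out (adjusted p = 0.0546 to 0.0846). In the authors' deposited table its adjusted p was 0.0168.

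The 2 genes named YABBY 2 both lie on linkage group 9, 6.19 Mb apart, and Arabidopsis thaliana YABBY 2 is a vegetative member too. LOC105170996 (coding segment 7247626 to 7247694, plus strand) had 65.1, 65.8 and 61.2 CPM in SiCD_A and 70.6, 68.0 and 73.3 CPM in SiCD_B. The groups did not overlap, but the gap between the nearest pools was small. Its log2 fold change was 0.14 (SE 0.05), or 1.10-fold with a 95% interval of 1.02 to 1.19.

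LOC105170996 passed by a small margin, with an adjusted p of 0.0496 in edgeR's test. It was lost with DESeq2 size factors (0.0671), upper-quartile factors (0.0759), no filter (0.0514), limma-voom (0.0542) and DESeq2's test (0.0870), and without each pool in turn (0.0593 to 0.159). In the authors' deposited table its adjusted p was 0.0834, which does not pass. The count of 4 higher YABBY genes therefore fell to 3 under those scalings, filters and tests, and to 2 without any single pool except SiCD_B pool 1.

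LOC105170081 (coding segment 1057284 to 1057352, minus strand), the other YABBY 2 gene, had 21.1, 19.4 and 19.6 CPM in SiCD_A and 21.7, 20.0 and 20.5 CPM in SiCD_B. The pools of the groups overlapped. The log2 fold change was 0.05 (SE 0.06, adjusted p = 0.565 in edgeR's test). Its 95% interval, 0.941 to 1.14-fold, does not reach the intervals of YABBY 1-like and YABBY 1.

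YABBY 4 (LOC105168655) is the member on linkage group 8 (coding segment 11262885 to 11262965, minus strand), the linkage group of the alleles, 6.20 Mb from KAN1. It had 17, 17 and 3 counts in SiCD_A and 24, 7 and 9 in SiCD_B. SiCD_A pool 3 was at the 3 counts that a count of 0 allows, and the groups overlapped. The log2 fold change was -0.09 (SE 0.65, adjusted p = 0.927 in edgeR's test), with a 95% interval of 0.34 to 2.58-fold, so a change as large as that of YABBY 1-like was not detectable at this depth.

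**Figure D2:**
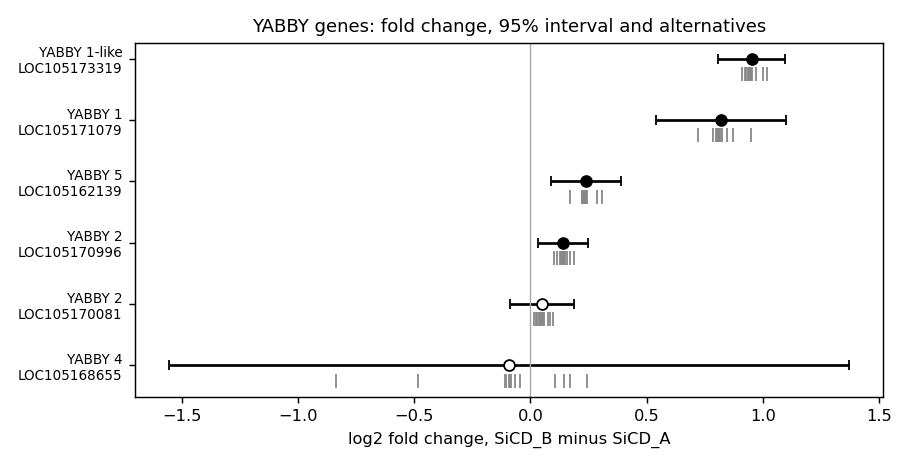
Log2 fold change of each YABBY gene, SiCD_B minus SiCD_A, from edgeR's test over 3 pools per group. Points are the estimates (filled where the adjusted p is under 0.05), bars the 95% intervals, and grey ticks below them the estimates under the alternative scalings, filters and tests and without each pool. YABBY 1-like (0.95) and YABBY 1 (0.82) stand to the right of YABBY 5 (0.24) and YABBY 2 (0.14 and 0.05), and the interval of YABBY 4 spans -1.55 to 1.37.

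Ratios between genes within a pool do not depend on how pools are scaled. The ratio of YABBY 1-like to YABBY 2 LOC105170996 counts was 0.429, 0.442 and 0.450 in SiCD_A and 0.699, 0.846 and 0.773 in SiCD_B. That of YABBY 1 to YABBY 5 was 0.929, 0.885 and 0.897 against 1.22, 1.52 and 1.31. The groups did not overlap in either ratio, whereas YABBY 5 against YABBY 2 LOC105170996 overlapped, at 0.582, 0.568 and 0.604 against 0.563, 0.655 and 0.655.

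Of the 10 pairs among the 5 well-detected genes, the 6 that set YABBY 1-like or YABBY 1 against YABBY 5 or a YABBY 2 gene did not overlap between the groups. Their mean log2 ratios were 0.57 to 0.90 higher in SiCD_B, each with a two-sided exact permutation p of 0.1, or 0.167 adjusted over the 10 pairs. With 3 pools against 3 the smallest p possible is 0.1, so no pair can pass 0.05. These pairs use the same counts as the fold changes above and are not further evidence for them. The other 4 pairs overlapped, with differences of 0.09 to 0.18 on the log2 scale (exact permutation p = 0.2 to 0.4).

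**Figure D3:**
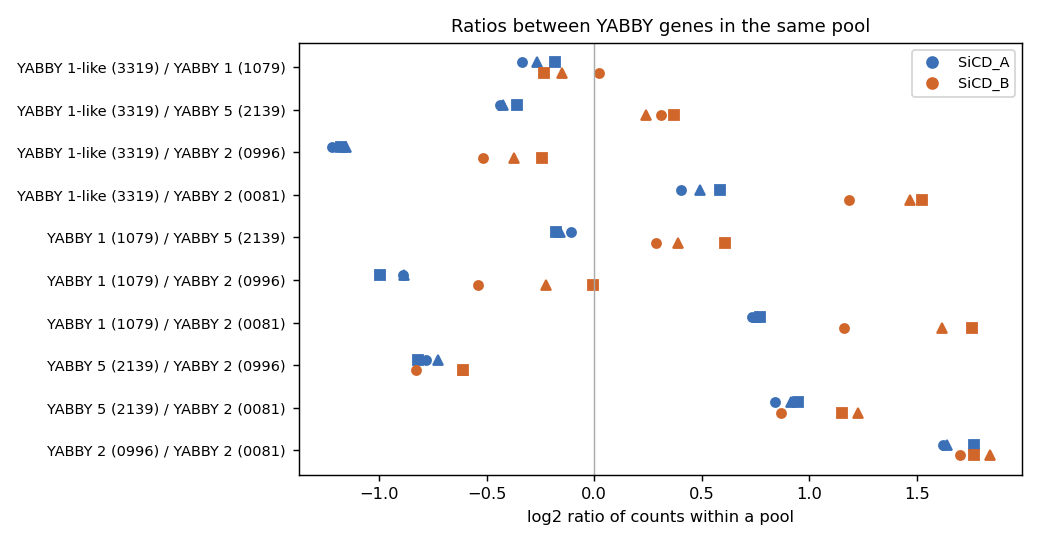
Log2 ratio of counts between pairs of YABBY genes within each pool, with the last 4 digits of each locus number in brackets. Blue is SiCD_A and orange SiCD_B, and symbols mark the pool number. In the 6 pairs of a YABBY 1 type gene with YABBY 5 or YABBY 2, every SiCD_B pool lies to the right of every SiCD_A pool, and the other 4 pairs overlap.

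The make-up of the family's counts shows the same ratios as shares, given as a description. YABBY 1-like made up 15.4 ± 0.43% of the family's counts in SiCD_A and 21.8 ± 0.45% in SiCD_B, and YABBY 1 made up 18.4 ± 0.47% and 23.8 ± 2.60% (SD, n = 3 pools each). YABBY 2 LOC105170996 made up 34.9 ± 0.66% and 28.4 ± 2.16%. These shares depend on transcript length and are compared between pools only, and levels were not ranked between genes because no transcript or coding length was used here. The summed level of the 6 genes was 178 to 188 CPM in SiCD_A and 230 to 262 CPM in SiCD_B.

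Within SiCD_B the same pool was low for several members. SiCD_B pool 1 was the lowest of its group for YABBY 1-like, YABBY 1 and YABBY 5, at 0.14, 0.28 and 0.14 below the group mean on the log2 scale, but the highest for YABBY 2 LOC105170081 and YABBY 4. Without it the log2 fold change of YABBY 1 was 0.95 in place of 0.82.

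The other genes of leaf polarity and the partners of YABBY proteins were taken as lists by product words. Over all tested genes the median log2 fold change was 0.01, and over the 6 YABBY genes 0.19. The counts of each list are to be read beside the 16.5% higher and 14.1% lower of all tested genes. The abaxial list had 5 of 5 genes higher and a median of 0.75, and 1 of the 5 is KAN1, the gene that names the alleles. Auxin response factor 4 (LOC105170702), which acts with KANADI on the lower leaf side, averaged 107 ± 7.62 CPM in the SiCD_A pools against 180 ± 7.86 CPM (SD, n = 3) and rose by 0.75 on the log2 scale (SE 0.06, adjusted p = 0.000130 in edgeR's test). KAN1-like (LOC105178203) had 2, 11 and 6 counts against 195, 172 and 182. A wider search that also took genes named transcription factor KAN, added after the data were seen, gave 7 of 8 higher and 0 lower.

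Genes of the opposite, upper (adaxial) side also rose. Of 12 adaxial genes 10 passed as higher and 0 as lower, and the list's median log2 fold change was 0.51. REVOLUTA (LOC105170294) and ATHB-14 (LOC105167264), homeobox genes of the class III HD-ZIP family, rose by 0.80 (SE 0.06) and 0.99 (SE 0.08) on the log2 scale (adjusted p = 9.5e-05 and 0.000166 in edgeR's test). YABBY 1-like, at 0.95, lay within the range of these upper-side genes.

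Of 4 genes of the WUSCHEL-related homeobox 1 and 3 types, which promote sideways growth of the blade, 3 were higher and 0 lower (median 1.15). WUSCHEL-related homeobox 1 (LOC105166551) had 300, 353 and 257 counts in SiCD_A and 1067, 1131 and 1064 in SiCD_B, a log2 fold change of 1.60 (SE 0.08). Corepressor genes had a median of 0.05, with 3 of 9 higher and 0 lower, beside 16.5% higher of all tested genes. SLK2 (LOC105179258) changed by 0.23 (SE 0.05, adjusted p = 0.00895 in edgeR's test), LEUNIG (LOC105164816) by 0.12 (adjusted p = 0.0498) and LEUNIG-like (LOC105168316), near 2 CPM, by 0.65 (adjusted p = 0.0421). SEUSS (LOC105159422) had a log2 fold change of -0.03 and did not pass. The corepressor list had 1 call when SiCD_A pool 1 or 3 or SiCD_B pool 2 or 3 was left out.

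**Figure D4:**
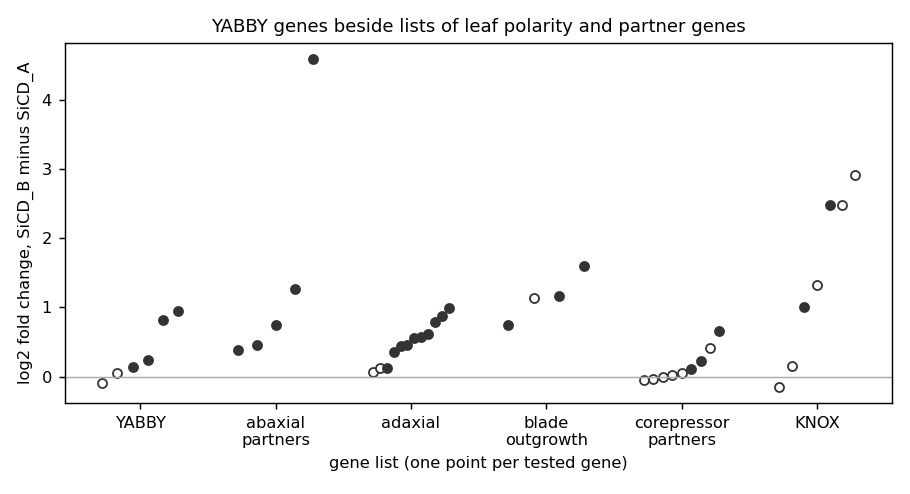
Log2 fold change, SiCD_B minus SiCD_A, of each tested YABBY gene and of each tested gene in 5 lists of leaf polarity and partner genes (x axis: list, y axis: log2 fold change, filled points: adjusted p under 0.05). The 5 abaxial genes are all filled and above 0, and 3 of the 9 corepressor genes are filled, all between 0 and 1.

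Class I KNOX homeobox genes keep meristem cells undifferentiated and are kept off in leaves by YABBY proteins in Arabidopsis thaliana. The KNOX list was made by product words, which do not give the class. Of 9 genes named for KNOX, 7 were tested, 2 were higher and 0 lower, beside 16.5% higher of all tested genes. The median was 1.33, but 2.65 without SiCD_A pool 3 and 2.26 without SiCD_B pool 3. With a CPM of at least 1 in 3 pools it was 0, over just 2 tested genes, both of the LET12 type. Knotted-1-like 1 (LOC105172431) had 15, 10 and 19 counts in SiCD_A and 112, 129 and 57 in SiCD_B, and rose by 2.47 on the log2 scale (SE 0.40, adjusted p = 0.00249 in edgeR's test). The other higher gene, LOC105165868, had 1.01 (adjusted p = 0.0322). The KNOX genes of the LET12 type, by far the deepest of the list, had 0.15 (LOC105162276) and -0.15 (LOC105166408) and did not pass. The KNOX list had 1 call when SiCD_A pool 2 or 3 or SiCD_B pool 1 or 2 was left out, and 3 calls when SiCD_B pool 3 was. The unadjusted p in edgeR's test was under 0.05 for 3 of 7 tested genes on all pools. Without SiCD_A pool 3, and also without SiCD_B pool 3, it was so for 7 of 8. Without SiCD_A pool 2 or SiCD_B pool 1 or 2 it was so for 2.

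SBH1 genes, named for a class I KNOX gene of soybean, split the pools in another way than YABBY 1. SBH1 LOC105168004, singled out after its values were seen, had 0, 0 and 8 counts in SiCD_A and 41, 33 and 2 in SiCD_B. SBH1 LOC105175299 had 0, 0 and 10 counts and 39, 28 and 3. In SiCD_B pool 3, where these genes had 2 and 3 counts, YABBY 1-like was at 56.7 CPM and YABBY 1 at 62.8 CPM, within the range of the other SiCD_B pools. In SiCD_A pool 3, with 8 and 10 counts, they were at 27.5 and 33.1 CPM, like the other SiCD_A pools. The knotted-1-like 6 genes split the pools much as the SBH1 genes did. LOC105168282, too low to be tested, had 0, 1 and 3 counts in SiCD_A and 26, 36 and 0 in SiCD_B. LOC105156624 had 5, 7 and 24 counts in SiCD_A and 49, 55 and 9 in SiCD_B.

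Markers of other tissues and of the leaf itself were counted beside the 16.5% higher and 14.1% lower of all tested genes. The vascular list of 6 SIEVE ELEMENT OCCLUSION genes was lower for 6 and higher for 0, with summed levels of 184 to 209 CPM in SiCD_A and 142 to 166 CPM in SiCD_B. Lower genes numbered 4 with library size alone, and 3 when SiCD_A pool 1 or SiCD_B pool 2 or 3 was left out. In these settings 5 to 6 of the 6 had an unadjusted p under 0.05 in edgeR's test. Their median log2 fold change was -0.33 to -0.30, against -0.35 in the main fit. Of the 20 leaf genes, 1 was higher and 3 lower, which is near or below those shares, and 16 were lower without SiCD_A pool 3. Leaving out SiCD_A pool 1 or 2 or SiCD_B pool 2 or 3 left 0 lower in edgeR's test, with 4 to 5 of the 20 at an unadjusted p under 0.05. On all pools 6 were lower with DESeq2, and 11 in edgeR's test with pool number as a block. The part of these shifts in the YABBY changes was not tested.

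Of 22 tested genes on the flower list, 5 were higher and 1 lower, with summed levels of 226 to 256 CPM in SiCD_A and 250 to 258 CPM in SiCD_B. Leaves also express part of this list, such as APETALA 2 types. Among organ identity genes, AGAMOUS (LOC105165579) had 4, 3 and 4 counts against 26, 11 and 11 and was too low to be tested. GLOBOSA (LOC105164846) was at 0.387 and 0.417 CPM. DEFICIENS (LOC105159317) was at 2.98 and 2.43 CPM and AGAMOUS-like (LOC105167332) at 1.09 and 0.846 CPM. SEPALLATA 1-like (LOC105180283) rose by 1.74 on the log2 scale, from 0.161 to 0.552 CPM (adjusted p = 0.00871 in edgeR's test). CMB1-like (LOC105180242) rose by 0.76 and APETALA 1 A-like (LOC105180307) by 0.84 (adjusted p = 0.0088 and 0.014 in edgeR's test). The lower gene was floricaula (LOC105158515), at -0.57 (adjusted p = 0.028 in edgeR's test). The word search for the shoot meristem found 5 genes, all named CLE-related, which do not mark the meristem by name. Of these 1 was higher and 0 lower, with summed levels of 5.24 to 6.17 CPM in SiCD_A and 5.16 to 6.29 CPM in SiCD_B. The higher gene is named TDIF (LOC105163512), a peptide known from vascular tissue, and 0 were called in edgeR's test when SiCD_A pool 2 or SiCD_B pool 3 was left out, with 1 and 2 at an unadjusted p under 0.05.

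Likeness of pattern was described by Pearson's correlation of log2 CPM over the 6 pools, which share plants within a group and all carry the difference between groups. YABBY 1-like and YABBY 1 were each the most alike member of the other (r = 0.975). YABBY 5 was most like YABBY 1 (0.932), YABBY 2 LOC105170996 most like YABBY 1-like (0.842), and YABBY 2 LOC105170081 and YABBY 4 most like each other (0.608).

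For YABBY 2 LOC105170996, the member with the highest CPM, the 5 most alike genes with a product name were F-box protein SKIP5 (LOC105172168, r = 0.998), cyclin-D4-1-like (LOC105178263, 0.995), RER1A-like (LOC105172897, 0.993), a tRNA methyltransferase subunit (LOC105177115, 0.992) and ACR4 (LOC105168447, 0.991). Over all 21008 other genes, 157 had r above 0.95 with it. Of the 5, cyclin-D4-1-like passed the test (log2 fold change 1.65, adjusted p = 0.0305 in edgeR's test).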

How the data were processed

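Per the labels' protocols, a TruSeq RNA kit, version 2, was used and libraries were read as pairs of 100 bases. This kit keeps no strand. Per the submitters' processing notes, the tools included STAR, HTSeq, SAMtools, DESeq2, Trim Galore and FastQC 0.11.4. The sources used here name neither the genome build of the alignment nor the settings. The authors deposited raw counts, whole reads for each gene. The authors' deposited tables also give log2 fold changes and adjusted p-values, and the counts repeated there equal the count table in all 6 columns. The deposited normalized table was not used.

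The contrast was fitted to the counts with edgeR 4.0.16 under R 4.3.3 (quasi-likelihood, robust, TMM scaling, filterByExpr), SiCD_B minus SiCD_A over 6 pools without covariates, with Benjamini-Hochberg adjustment over 21009 genes. The SE is the log2 fold change divided by the square root of F. CPM are TMM-scaled counts per 1000000. Alternatives used DESeq2 1.42.0 and limma 3.58.1, and the likeness measure added 0.5 CPM before the log. Linkage groups come from the RefSeq table of S_indicum_v1.0, matched by gene symbol for all 25762 genes. The fit was tested on simulated data. No pools of a group were close enough to be one library deposited again (chi-square over its degrees of freedom, 5.32 to 30.4).

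The members and lists were chosen with earlier results of these data known. Every YABBY gene is named, and of each list called members of smallest p, up to 4. The SBH1, knotted-1-like 6, SEUSS and LET12 genes and the single marker genes were picked after their values were seen. Likeness was meant to start from the member with the highest level per coding length, and CPM was used instead. Figures were drawn with matplotlib 3.10.9.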

Additional observations from a re-analysis of the deposited data

How the results depend on the processing

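Over 14 alternatives (scaling, filter, test, pool number as a block, and each pool left out), YABBY 1-like and YABBY 1 kept their call and direction, with log2 fold changes of 0.91 to 1.02 and 0.72 to 0.95. YABBY 5 kept its direction and lost its call in 5, and YABBY 2 LOC105170996 in 12. YABBY 4, tested in 13 of them, was not called in any and changed sign in some. Leaving out pools gave 3919 to 5998 called genes against 6433, 2 to 3 called YABBY genes against 4, 1 to 2 corepressor genes against 3, and 1 to 3 KNOX genes against 2. With the limit of 1.5-fold 2 YABBY genes were called. With a CPM of at least 1 in 3 pools, 2 KNOX genes were tested and edgeR called 0 (1 had an unadjusted p under 0.05). Without a filter edgeR called 2 of 9 tested KNOX genes, and DESeq2's test, which used no CPM filter, called 3 of 9. Same-numbered pools deviated together only weakly, with correlations of 0.13, 0.06 and 0.16, but 6 of 6 pools correlated best with their own number. Deviations were taken from the mean of each group of 3 pools, so these correlations are tied and the 6 are not separate observations. Whether the pool numbers pair the pools is thus not settled. With the replicate block 7181 genes, 3 YABBY genes and 4 KNOX genes (3 higher, 1 lower) were called, and YABBY 2 LOC105170996 had an adjusted p of 0.0586. No scaling moved the median of all genes by more than 0.05 (log2). Levels per coding length were not run. Depth limits YABBY 4 alone among the members.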

Other observations

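The genes beside the YABBY genes were read as well. In the RefSeq order of S_indicum_v1.0, the nearest tested genes on either side of the 6 members are 12 genes. Of these 3 were higher and 0 lower in SiCD_B, beside 16.5% higher and 14.1% lower of all tested genes. YABBY 1-like and YABBY 1, on different linkage groups, are each followed by a gene for Golgi SNAP receptor complex member 1-2, a protein of vesicle fusion. These neighbours had log2 fold changes of 0.21 (LOC105173320, adjusted p = 0.0593) and 0.15 (LOC105171088, adjusted p = 0.0951) in edgeR's test and did not pass. The largest change among the 12 was 0.63 (LOC105170082, adjusted p = 0.00331), beside YABBY 2 LOC105170081, which did not pass itself.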
